A study of Saccharomyces cerevisiae with 6 samples.

Results

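Nucleosomes of the H3 shutoff strain were compared with those of wildtype in budding yeast grown in galactose, before histone H3 was depleted. The members are 3 of the 6 libraries of the series, namely H3 shutoff at 0 h (2 libraries, replicates 1 and 2) and wildtype at 0 h (1 library), and they were chosen by strain and time alone. The H3 shutoff strain (DCB200.1) has its HHT1 gene deleted and its remaining H3 gene, HHT2, under the GAL1 promoter, which galactose turns on and dextrose turns off. The wildtype strain (YEF473A) keeps both H3 genes under their own promoters. Cells of both strains were grown in rich galactose medium, filtered, rinsed with dextrose medium and fixed with formaldehyde at once, so the carbon source in their labels is dextrose although growth was in galactose. Chromatin was cut with micrococcal nuclease (MNase), and the DNA of the mononucleosome band was sequenced from 1 end.

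A nucleosome is DNA wound around an octamer of histones H2A, H2B, H3 and H4. Yeast genes usually begin with a nucleosome-depleted region followed by an ordered array, in which the first nucleosome of the gene (+1) is the best placed and later ones are less so. MNase digests linker DNA faster than wrapped DNA, so the centre of a protected fragment marks the nucleosome's middle. Here reads came from 1 end, so a read centre is the middle of a read extended to 1 length per library. Its scatter thus also holds the spread of fragment lengths and any error in that length. The measures below keep apart how many read centres fall at a nucleosome and how widely these scatter around its middle.

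The wildtype group holds a single library and so has no replicate error. A difference was kept only where both H3 shutoff libraries lay on the same side of wildtype, and where each lay farther from it than the H3 shutoff libraries lay from each other. With 2 libraries against 1, an exact permutation test has 3 arrangements and cannot reach 0.05, so single values carry no p. Strain, culture and digest cannot be told apart with these libraries. The wildtype 3 h library is given beside the others, although it differs from wildtype 0 h by 3 h in dextrose. Both wildtype libraries came from 1 culture, so the step between them holds no spread between cultures. The H3 shutoff libraries of 0 h came from different cultures. Each library held 5000001 reads, so counts are relative within a library. Between the H3 shutoff libraries, counts per nucleosome scattered more than counting alone gives (chi-square over its degrees of freedom 3.62). Replicate 1 stood apart at gene starts, as described with those values.

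The strain label was checked at the altered genes as far as an annotation of the sacCer1 build, which the coordinates use, allowed. The gene table used here covers chromosomes 1 and 10 to 13 and part of 14, and 2 of the 20 genes looked for (the core histone genes, galactose genes and common marker genes) lie there. HHT1 and HHT2 were not among them, so their own values are not given. A scan of 250 bp windows, chosen after the data had been seen, asked instead where all 4 H3 shutoff libraries lay at least 2-fold from both wildtype libraries. Of 238383 overlapping windows, 42 (0.0176%) were higher and 4 (0.00168%) were lower in H3 shutoff, which merged into 14 regions and 2 regions.

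The lower regions lay on chromosomes 2 and 5. On chromosome 2, the chromosome that carries HHT1, mean coverage over bases 256651 to 256950 was 9.40 and 12.0 extended reads per base in H3 shutoff at 0 h, against 24.6 in wildtype at 0 h. The 3 h libraries had 1.69 and 4.72 in H3 shutoff, against 25.3 in wildtype. On chromosome 5, bases 116101 to 116400 had 94.6 and 78.5 in H3 shutoff at 0 h, against 191 in wildtype at 0 h. There the 3 h libraries had 75.2 and 85.0 in H3 shutoff, against 202 in wildtype. Neither region was assigned to a gene, since the gene table does not reach these chromosomes.

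One stretch of chromosome 4 was bare in wildtype alone. Over bases 461879 to 462220 (342 bp) the H3 shutoff libraries had a mean coverage of 77.8 and 71.9 at 0 h, and 93.0 and 90.2 at 3 h. Wildtype had no read there at 0 h and a mean coverage of 0.0117 at 3 h. A stretch that is covered in 1 strain at both times and bare in the other at both times follows the strain label and not the time. It was the only run of at least 300 bp without reads in wildtype 0 h with a mean coverage of at least 10 in both H3 shutoff libraries, and there was no run of the reverse kind. The 250 bp scan extended it to bases 461601 to 462500, where coverage was 74.4 and 68.8 in H3 shutoff at 0 h, against 12.2 in wildtype. It was not assigned to a gene. A further 8 runs of at least 300 bp were bare in all 6 libraries, among them the ribosomal DNA on chromosome 12, which the authors had removed.

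**Figure D1:**
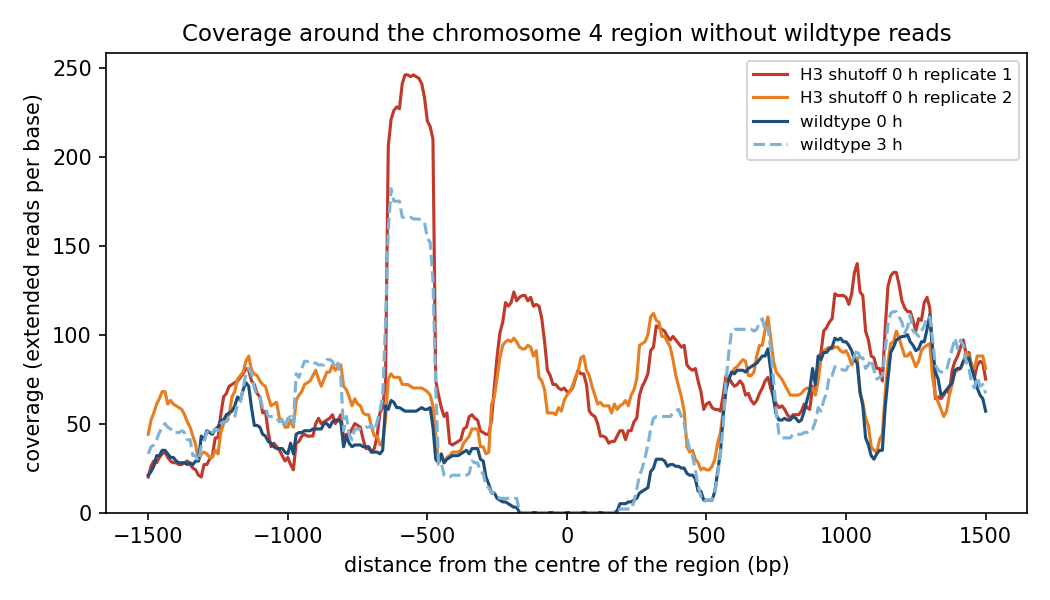
Coverage in extended reads per base (vertical axis) against distance in bp from the centre of the chromosome 4 region without wildtype reads (horizontal axis), with 1 line per library. Within the region both H3 shutoff lines lie above 0 throughout, with means of 77.8 and 71.9, and both wildtype lines lie at or next to 0; on either side the lines of the strains cross.

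Of the 14 regions that were higher in H3 shutoff, 6 lay on chromosomes of the gene table. One lay within NUP188, a scaffold component of the nuclear pore, with coverage of 49.6 and 48.7 in H3 shutoff at 0 h, against 24.6 in wildtype (chromosome 13, bases 66501 to 66850). Another lay at TAF9, a subunit shared by TFIID and SAGA, with 50.4 and 47.9 in H3 shutoff, against 22.3 in wildtype (chromosome 13, bases 743051 to 743400). At ASC1, which encodes a small-subunit ribosomal protein, coverage was 35.8 and 29.2 in H3 shutoff, against 13.8 in wildtype (chromosome 13, bases 499901 to 500150). MTR4, an RNA helicase of nuclear RNA surveillance, had 41.3 and 51.0 in H3 shutoff, against 21.1 in wildtype (chromosome 10, bases 343051 to 343350). The remaining ones were a stretch at YLR169W, APS1 and YLR171W and one between the left end of chromosome 14 and COS1. These regions were selected for this difference, so their values are a description.

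Read centres scattered more widely in H3 shutoff than in wildtype. Fuzziness, the standard deviation of read centres within a called nucleosome, had a median 4.77 ± 0.951 bp higher in H3 shutoff than in wildtype (SD of the 2 libraries). How far fragment lengths enter this difference was not tested. The lower end of the distribution was farther apart than the upper end. The 10th percentile of fuzziness was 24.99 and 22.3 bp in H3 shutoff, against 17.96 bp in wildtype, while the 90th percentile was 46.2 and 46.3 bp in H3 shutoff, against 45.2 bp in wildtype. Nucleosomes with a fuzziness under 20 bp made up 2.68% and 5.79% of those called in H3 shutoff, against 15.6% in wildtype. Wildtype at 3 h had 16.4%, closer to wildtype at 0 h than either H3 shutoff library was. Nucleosomes over 45 bp made up 13.7% and 13.5% in H3 shutoff, against 10.4% in wildtype. Fuzziness is bounded by the protected length, so a small difference at the upper end cannot be read as like placement.

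**Figure D2:**
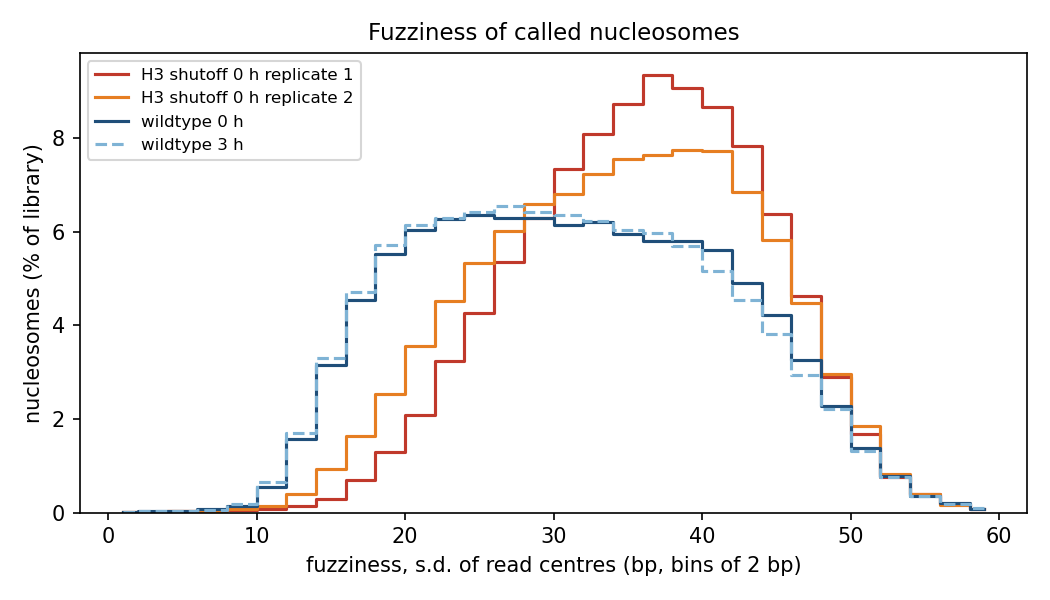
Distribution of fuzziness, the standard deviation of read centres in bp, in 2 bp bins (horizontal axis) as the percentage of each library's called nucleosomes (vertical axis). The H3 shutoff lines lie to the right of both wildtype lines, which nearly coincide, and the tails above 50 bp run together.

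The difference was spread over the genome. Among 46942 nucleosomes matched in the 3 libraries, 29188 (62.2%) were fuzzier in both H3 shutoff libraries than in wildtype and 7313 (15.6%) were sharper in both. By at least 10 bp, 3565 (7.59%) were fuzzier in both and 354 (0.754%) were sharper in both. These counts share 1 wildtype library, whose own sampling error enters both differences. Median fuzziness was higher in both H3 shutoff libraries on 16 of 16 chromosomes, by 4.61 to 5.94 bp in replicate 1 and by 3.63 to 4.51 bp in replicate 2. With one fixed window of 73 bp on either side of the centre, in place of the protected length of each library, the medians were 31.3 and 30.1 bp in H3 shutoff, against 27.0 bp in wildtype. Among nucleosomes with at least 50 read centres they were 32.8 and 32.3 bp in H3 shutoff, against 27.4 bp in wildtype. Repeated reads differed between the strains too, with a share of distinct intervals among reads of 52.7% and 51.9% for H3 shutoff, against 47.8% in wildtype at 0 h and 46.2% at 3 h. With each distinct interval counted once, a setting added after the data had been seen, the medians within 73 bp were 35.2 and 34.1 bp in H3 shutoff, against 31.4 bp in wildtype. Nearly all intervals of 1 library have 1 length, so each centre position then counts about once and high counts are compressed.

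To choose nucleosomes without the compared libraries, those called in wildtype at 3 h were split into 5 equal classes by their fuzziness there, and the scatter within 73 bp was measured at these centres. In the sharpest class (n = 10256) the median was 23.5 and 21.2 bp in H3 shutoff, against 17.8 bp in wildtype at 0 h. In the second class it was 28.6 and 26.6 bp in H3 shutoff, against 22.9 bp in wildtype. In the middle class it was 32.1 and 30.7 bp in H3 shutoff, against 27.7 bp in wildtype. In the fuzziest class (n = 10257) it was 37.9 and 38.0 bp in H3 shutoff, against 37.1 bp in wildtype. The distance to wildtype was similar in the first and second classes, at 5.72 and 5.63 bp in replicate 1 and 3.38 and 3.64 bp in replicate 2, and was smaller in the later classes. An even spread of centres over this window has a standard deviation of 42.4 bp, so the fuzziest class was near the ceiling of the measure and its small difference cannot be read as like placement. The split and the gene positions that follow were chosen after the data had been seen. Both take their centres from the wildtype strain, which can favour wildtype 0 h, and no choice from H3 shutoff calls was made for them.

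Fuzziness differed along genes too. Called nucleosomes of wildtype 3 h were assigned to positions +1 to +5 of 1261 genes of at least 1000 bp, where they lay within 40 bp of the average position. At +1 (n = 771), which borders the depleted region, the median scatter within 73 bp was 25.3 and 22.0 bp in H3 shutoff, against 19.2 bp in wildtype. At +2 (n = 573) it was 26.3 and 24.0 bp in H3 shutoff, against 19.5 bp in wildtype. At +3 (n = 564) it was 28.6 and 27.1 bp in H3 shutoff, against 21.6 bp in wildtype. At +4 (n = 540) it was 31.6 and 29.6 bp in H3 shutoff, against 24.3 bp in wildtype. At +5 (n = 523) it was 32.8 and 31.3 bp in H3 shutoff, against 26.5 bp in wildtype. At +1 the H3 shutoff libraries lay farther from each other than replicate 2 lay from wildtype, so by the rule above the difference was kept at +2 to +5 and not at +1, although +1 was the sharpest position in wildtype. The share fuzzier in both H3 shutoff libraries was 72.9% at +1 and 77.1% to 81.0% at +2 to +5. By the deposited fuzziness it was 62.2% of all matched nucleosomes. That is an unlike measure, taken at each library's own centres, so the distance between the shares cannot be read as an effect of gene position.

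Array order was lower in H3 shutoff in the same way. The autocorrelation of smoothed read-centre density was, at its first maximum, lower by 0.0555 ± 0.00697 (SD, n = 2) in H3 shutoff than in wildtype, and the minimum before it was -0.144 and -0.168 in H3 shutoff, against -0.229 in wildtype. The second maximum, which reflects the next nucleosome but one, was 0.198 and 0.225 in H3 shutoff, against 0.276 in wildtype. The third was 0.111 and 0.125 in H3 shutoff, against 0.158 in wildtype. Wildtype at 3 h gave 0.271 at the second and 0.164 at the third maximum, near wildtype at 0 h. At the fourth maximum both H3 shutoff libraries, with 0.061 and 0.075, were still below wildtype, with 0.083 at 0 h and 0.094 at 3 h, but lay farther from each other than replicate 2 lay from wildtype 0 h. At the fifth the values were 0.044 and 0.063 in H3 shutoff, against 0.058 in wildtype 0 h and 0.063 in wildtype 3 h, and the strains overlapped.

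**Figure D3:**
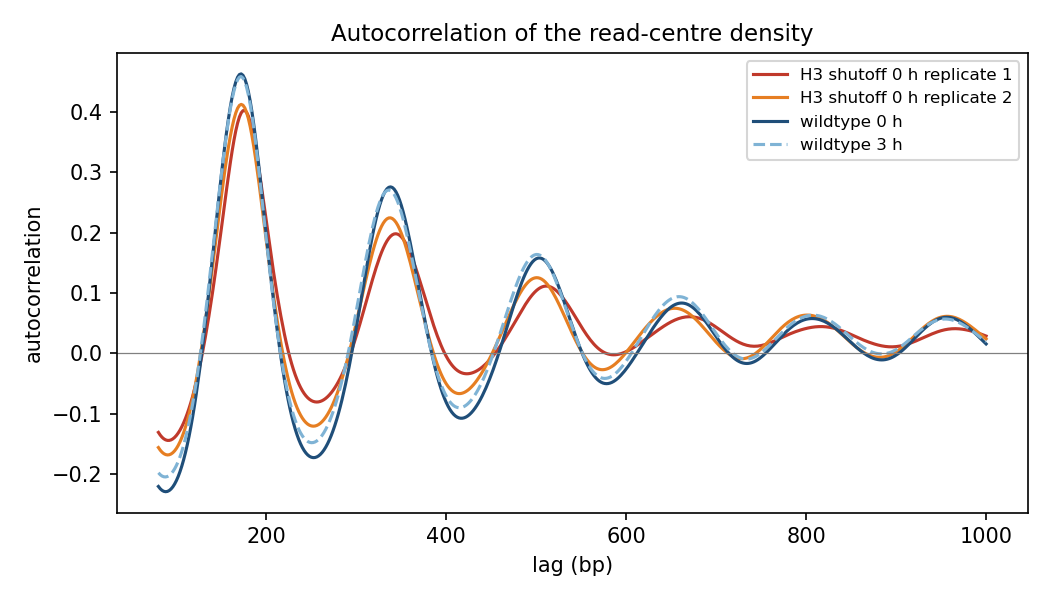
Autocorrelation of the smoothed read-centre density (vertical axis, no unit) against lag in bp (horizontal axis), with 1 line per library. The maxima of both H3 shutoff lines are lower and their minima shallower than those of both wildtype lines up to the third maximum, and the strains overlap at the fifth maximum.

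The lags of the maxima gave no difference in repeat length that was alike in both libraries. Successive maxima lay at lags of 175, 344 and 511 bp in H3 shutoff replicate 1 and at 172, 337 and 501 bp in replicate 2, against 172, 338 and 503 bp in wildtype, so replicate 2 and wildtype were within 2 bp while replicate 1 lay farther out. The median distance between neighbouring called centres up to 250 bp was 180 bp in both H3 shutoff libraries, against 179 bp in wildtype 0 h and 178 bp in wildtype 3 h. That 1 bp meets the rule above but is no larger than the step between the wildtype libraries. The spread of distances was wider in H3 shutoff, with quartiles of 172 and 200 bp in replicate 1 and of 173 and 198 bp in replicate 2, against 175 and 194 bp in wildtype. The calling procedure closes 1 protected length around each call, so the shortest distances are set by the lengths given to the libraries, which were 170 and 172 bp in H3 shutoff, against 174 bp in wildtype. Because reads were sequenced from 1 end, this length is an estimate of the authors, and at 2 to 4 bp shorter in H3 shutoff it did not meet the rule for a difference alike in both.

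At gene starts the density rose and fell less in H3 shutoff than in wildtype, from the first window on. Amplitude, the maximum minus the minimum of the mean density over its mean in successive 160 bp windows, was 0.954 and 0.933 in H3 shutoff, against 1.06 in wildtype in the first window. In the third window it was 0.535 and 0.624 in H3 shutoff, against 0.785 in wildtype. In the fifth window it was 0.274 and 0.343 in H3 shutoff, against 0.470 in wildtype. Wildtype at 3 h had 1.09, 0.748 and 0.464 in these windows. The height of the first maximum was 2.12 and 1.97 in H3 shutoff, against 2.12 in wildtype (1 = genome mean). That height did not meet the rule. The average maxima lay 38, 210, 381, 547 and 714 bp into the gene in replicate 1 and 40, 209, 377, 541 and 705 bp in replicate 2, against 38, 206, 375, 539 and 701 bp in wildtype. From the second maximum on, both H3 shutoff libraries lay farther into the gene than wildtype, but only the second met the rule. Beside gaps of 250 to 600 bp between nucleosomes called in wildtype 3 h (38683 gap edges), a set that needs no gene table, the third window gave 0.378 and 0.480 in H3 shutoff, against 0.650 in wildtype. These edges, too, were called in the wildtype strain.

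**Figure D4:**
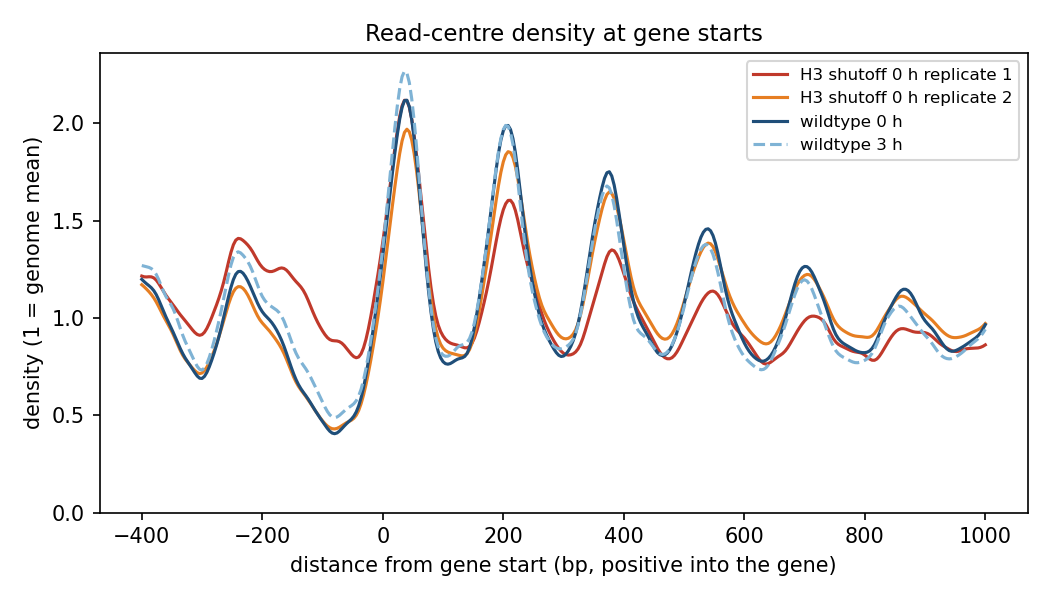
Mean read-centre density relative to the genome mean (vertical axis) against distance from the gene start in bp (horizontal axis) over 1261 genes, with 1 line per library. The maxima inside the gene are lower in both H3 shutoff lines than in wildtype 0 h from the second on. In the depleted region just upstream of the start replicate 1 lies highest.

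The depleted region upstream of gene starts showed where replicate 1 stood apart. Its lowest mean density was 0.795 in H3 shutoff replicate 1 and 0.430 in replicate 2, against 0.405 in wildtype at 0 h and 0.488 at 3 h. Replicate 2 and wildtype were level there, so no strain difference in the depth of this region was kept. Replicate 1 also had fewer read centres inside genes, with a median log2 ratio to wildtype of -0.34 at +2 and -0.40 at +3, where replicate 2 had -0.13 and -0.10. The scatter and array measures above separated replicate 2 from wildtype without replicate 1.

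Read centres lay less often at the called positions of wildtype. Within 50 bp of the wildtype 0 h centres fell 64.1% and 66.5% of read centres in H3 shutoff, against 71.7% in wildtype at 0 h, which placed the centres itself, and 70.6% in wildtype at 3 h. The 95% Wilson intervals, which cover counting error only, were 64.05% to 64.14% and 66.44% to 66.53% in H3 shutoff, against 71.62% to 71.70% in wildtype at 0 h. At wildtype 3 h centres, chosen without the compared libraries, the shares were 63.8% and 65.3% in H3 shutoff, against 69.3% in wildtype at 0 h. In 5 classes of nucleosomes by their count in wildtype 3 h, the lowest class had a median of 25 read centres in both H3 shutoff libraries, against 23 in wildtype at 0 h. The highest class had 107 and 109 in H3 shutoff, against 121 in wildtype. These centres and classes also come from the wildtype strain, which can favour wildtype 0 h.

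Single nucleosomes gave no call. At an adjusted p under 0.05 (edgeR quasi-likelihood test, Benjamini-Hochberg), 0 of 51060 nucleosomes were higher (0%) and 0 were lower (0%) in H3 shutoff, and the smallest adjusted p was 0.702. At an unadjusted p under 0.05, 1130 were higher and 509 lower. DESeq2 also called 0 and 0, with 216 and 18 at an unadjusted p under 0.05. Each of these pairs of unadjusted counts was below a share of 0.05 of the 51060 nucleosomes, so neither showed an excess of small p. The edgeR test had little reach at this size, since in simulated counts for these nucleosomes it recovered 7% of 2-fold and 73% of 4-fold changes. The count of calls varied with the libraries and terms in the fit. With the culture of the H3 shutoff libraries as a replicate block, edgeR called 195 higher and 8 lower, with 1 residual degree of freedom. Without replicate 1 it called 3 higher and 1 lower, and without replicate 2 it called 895 higher and 207 lower. These last fits set 1 H3 shutoff library against 1 wildtype library with 1 residual degree of freedom, so their spread comes from the H3 shutoff 3 h pair alone and is assumed to hold for the single libraries.

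By size alone, 135 of 50990 nucleosomes (0.265%) had at least 2-fold more read centres in both H3 shutoff libraries than in wildtype 0 h, and 57 (0.112%) had at least 2-fold fewer. These counts had to pass in both H3 shutoff libraries, so they are not like counts from single pairs of libraries, which pass the fold once. Between the H3 shutoff libraries 1832 were higher in replicate 1 and 1817 lower (3.59% and 3.56%), and between the wildtype libraries 927 were higher at 3 h and 2317 lower (1.82% and 4.54%). Replicate 1 alone differed 2-fold from wildtype at 1662 and 2706 nucleosomes, and replicate 2 alone at 332 and 398.

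The 3 h libraries, which the choice of these nucleosomes did not use, were then read at them. The 135 nucleosomes had medians of 39 and 33 read centres in H3 shutoff at 0 h, against 13 in wildtype at 0 h. Their median was 20 in wildtype at 3 h, and 48 and 41 in H3 shutoff at 3 h. Against wildtype at 3 h, 44 of the 135 (32.6%) were still at least 2-fold higher in both H3 shutoff 0 h libraries, beside 993 (1.95%) of all nucleosomes compared. The 57 nucleosomes had medians of 19 and 24 in H3 shutoff at 0 h, against 57 in wildtype at 0 h. Their median was 29 in wildtype at 3 h, and 31 and 33 in H3 shutoff at 3 h, so the 3 h libraries did not repeat the lower counts. Against wildtype at 3 h, 7 of the 57 (12.3%) were at least 2-fold lower in both, beside 241 (0.473%) of all. The H3 shutoff 0 h libraries in both of these shares also chose the nucleosomes, so an excess over all nucleosomes is built in. Much of the distance to wildtype 0 h was thus not found against the other wildtype library, with a median log2 ratio of wildtype 3 h over 0 h of 0.58 in the 135 and -0.69 in the 57, beside -0.07 in all.

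The 5 nucleosomes with the largest mean log2 ratio of H3 shutoff over wildtype at 0 h and the 5 with the smallest are given with their counts of read centres. A nucleosome within NUP188, centred at base 66662 of chromosome 13 in the region found by the scan, had 61 and 43 in H3 shutoff, against 10 in wildtype at 0 h and 13 at 3 h, and the H3 shutoff libraries had 131 and 141 at 3 h. One at base 491749 of chromosome 4 had 37 and 25 in H3 shutoff, against 6 in wildtype at 0 h and 9 at 3 h. Distinct intervals numbered 30 and 25 in H3 shutoff, against 9 in wildtype at 0 h, at the NUP188 nucleosome, and 21 and 19 in H3 shutoff, against 6 in wildtype, at the chromosome 4 one. At both, every H3 shutoff library of either time lay above both wildtype libraries.

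The other 3 did not separate by strain. Between PIR1 and PIR3, which encode cell wall proteins, the nucleosome at base 143359 of chromosome 11 had 105 and 16 in H3 shutoff, against 7 in wildtype at 0 h, but 41 in wildtype at 3 h. Within DMO1 (base 647145 of chromosome 10) the counts were 73 and 32 in H3 shutoff, against 10 in wildtype at 0 h, but 69 at 3 h. Within SRX1, which encodes sulfiredoxin (base 278246 of chromosome 11), they were 70 and 32 in H3 shutoff, against 10 in wildtype at 0 h, but 61 at 3 h. At all 3, wildtype at 3 h lay between the H3 shutoff libraries.

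Of the 5 lowest, 4 lay within 20 kb of a chromosome end and none of the 5 highest did. Of the whole sets, 15.8% of the 57 lower and 6.67% of the 135 higher nucleosomes lay there, beside 5.01% of all compared. Beyond YLR466C-B at the right end of chromosome 12, the nucleosome at base 1076431 had 3 and 20 read centres in H3 shutoff, against 64 in wildtype at 0 h and 36 at 3 h. On the end side of AYT1, an acetyltransferase gene near the left end of chromosome 12, the one at base 6240 had 66 and 105 in H3 shutoff, against 308 in wildtype at 0 h and 178 at 3 h. On chromosome 8 the nucleosome at base 543291 had 2 and 7 in H3 shutoff, against 22 in wildtype at 0 h and 23 at 3 h, and that at base 1272 had 5 and 12 in H3 shutoff, against 28 in wildtype at 0 h and 19 at 3 h. The fifth lay within ASH1, whose product represses mating-type switching in daughter cells. At base 95753 of chromosome 11 it had 72 and 99 in H3 shutoff, against 273 in wildtype at 0 h and 141 at 3 h. In all 5 both H3 shutoff libraries at 0 h lay below both wildtype libraries by read centres. Counted once per distinct interval, the AYT1 nucleosome had 18 and 22 in H3 shutoff, against 19 in wildtype at 0 h and 17 at 3 h, so the strains were not apart by that count. Counting this way compresses high values, as described with fuzziness. The one at the right end of chromosome 12 had 2 and 8 distinct intervals in H3 shutoff, against 8 in wildtype at 0 h and 9 at 3 h. On chromosome 8, distinct intervals at base 543291 numbered 2 and 6 in H3 shutoff, against 15 in wildtype at 0 h and 9 at 3 h, and at base 1272 they numbered 4 and 8 in H3 shutoff, against 9 in wildtype at 0 h and 10 at 3 h. The edgeR adjusted p of the 10 nucleosomes was 0.702 to 0.999. Counts at chromosome ends, which share repeated sequence, are uncertain where alignment could split reads between copies.

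**Figure D5:**
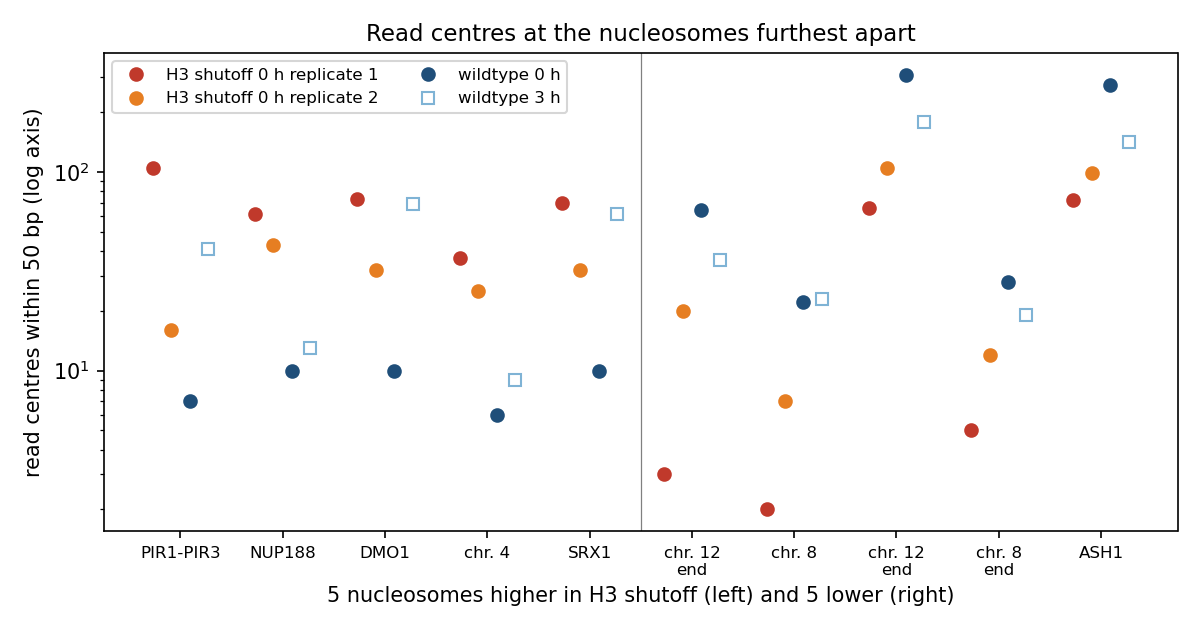
Read centres within 50 bp of the nucleosome centre on a log axis (vertical) for the 5 nucleosomes with the largest and the 5 with the smallest mean ratio of H3 shutoff over wildtype at 0 h (horizontal), with 1 point per library. The open square, wildtype at 3 h, lies below both H3 shutoff points only at NUP188 and the chromosome 4 nucleosome in the left panel, and above both H3 shutoff points at all 5 on the right.

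Chromosome ends as a whole did not differ alike. The median log2 ratio to wildtype of the 2553 nucleosomes within 20 kb of an end, minus that of all others, was 0.06 in replicate 1 and -0.03 in replicate 2, with 0.03 in wildtype at 3 h. Whole chromosomes differed little, with shares of reads between 0.967 and 1.02 times wildtype in replicate 1 and between 0.971 and 1.03 times in replicate 2.

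Of 6012 tiles of 2 kb, 3 (0.0499%) had at least 1.5-fold more read centres in both H3 shutoff libraries and 1 (0.0166%) had at least 1.5-fold fewer. The lower tile, bases 94001 to 96000 of chromosome 11 over ASH1, had 833 and 849 in H3 shutoff, against 1628 in wildtype at 0 h and 1151 at 3 h, a mean log2 ratio to wildtype at 0 h of -0.95 ± 0.0194 (SD, n = 2). The wildtype libraries thus differed from each other there as well, while all 4 H3 shutoff libraries lay between 733 and 849. Counted once per distinct interval, the ASH1 nucleosome named above had 38 and 45 in H3 shutoff, against 65 in wildtype at 0 h and 50 at 3 h. This distance was smaller than in all reads, in a count that compresses high values. The tile between bases 636001 and 638000 of chromosome 12, at RCK2, a protein kinase gene, and YEF3, which encodes a translation elongation factor, had 332 and 345 in H3 shutoff, against 204 in wildtype at 0 h and 260 at 3 h. A tile of chromosome 5 (bases 68001 to 70000) had 605 and 554 in H3 shutoff, against 327 in wildtype at 0 h and 401 at 3 h. A tile of chromosome 4 (bases 460001 to 462000), which overlaps the stretch bare in wildtype, had 745 and 636 in H3 shutoff, against 393 in wildtype at 0 h and 588 at 3 h. With distinct intervals only, no tile was 1.5-fold apart in either direction. That setting compresses high counts, so it cannot show that the strains were level there.

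Of the galactose genes, GAL2 and GAL80 could be placed. GAL2, which encodes the galactose permease, had 1003 and 1095 read centres over its body in H3 shutoff, against 1101 in wildtype, and 112 and 76 in the 300 bp upstream in H3 shutoff, against 82 in wildtype. GAL80, which encodes the repressor of Gal4, had 780 and 835 over its body in H3 shutoff, against 945 in wildtype, and 63 and 34 in the 300 bp upstream in H3 shutoff, against 23 in wildtype. In these values the only one farther from wildtype in both H3 shutoff libraries than they were from each other was the body count of GAL80. No body counts over all genes were set beside it. At the wildtype 0 h centres, an unlike measure, the median log2 ratio to wildtype over all nucleosomes compared was -0.19 in replicate 1 and -0.09 in replicate 2. Wildtype 3 h had -0.07 there. Those centres were placed by wildtype 0 h itself, which can favour it. Whether lower counts were particular to GAL80 was thus not tested. Upstream of GAL80 both libraries were above wildtype but lay farther from each other than replicate 2 lay from wildtype.

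Positions of matched nucleosomes differed about as much within strains as between them. The median distance between matched centres was 6 bp for replicate 1 and 4 bp for replicate 2 against wildtype 0 h, and it was 4 bp both between the H3 shutoff libraries and between the wildtype libraries. Centres at least 20 bp apart made up 27.8% and 20.9% against wildtype 0 h, beside 24.5% between the H3 shutoff libraries and 23.8% between the wildtype libraries. Of the 46942 nucleosomes matched in the 3 libraries, 5055 (10.8%) were shifted by at least 20 bp the same way in both H3 shutoff libraries and 1213 (2.58%) in opposite ways. Of the 4767 of these 5055 that were also matched in wildtype 3 h, 2495 (52.3%) were shifted there by at least 20 bp in the same direction from wildtype 0 h, with a median of 23 bp. Since all these shifts are taken from the same wildtype 0 h centres, a centre that was misplaced in that library appears as a shift in every other one.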

How the data were processed

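MNase-seq reads were single-end. According to the methods and the labels, the authors aligned them to sacCer1 with Bowtie 0.12.6 at default settings, extended each to the average fragment length of its library, removed the ribosomal DNA and sampled every library down to 5000001 reads. The deposited intervals, a unit of position rather than of expression, hold 1 line per extended read. The authors also deposited lists of called nucleosomes with counts of read centres, not normalized, and a fuzziness in bp. Recounted counts were identical for 100% of nucleosomes.

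Read centres within 50 bp of the wildtype 0 h centres were tested with edgeR 4.0.16 (TMM, glmQLFit, glmQLFTest, all 6 libraries in 4 groups, 2 residual degrees of freedom) where the mean count was at least 10, with DESeq2 1.42.0 as an alternative, in R 4.3.3. The test was run on simulated data (200 of 51060 nucleosomes changed, 1 false call). Fold counts used a pseudocount of 1 and a mean of at least 10 in the 3 libraries. Density was smoothed with a Gaussian (s.d. 10 bp) and limited to its 99th percentile for the autocorrelation, in Python 3.11.15. Matched nucleosomes overlapped by 30 bp or more, each as the other's best partner. Regional scans used coverage of at least 10 and tiles of at least 100 reads.

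Per the methods, libraries of 1 replicate number and strain came from 1 culture. Their deviations from the group means did not run together between times (r = -0.08 over nucleosomes). The named nucleosomes are the 5 highest and 5 lowest mean log2 ratios among those 2-fold apart in both libraries, outside stretches without reads. Gene positions came from the study's sacCer1 gene table, held in part (1999 genes). Members and lists were chosen with earlier results of these data known.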

Additional observations from a re-analysis of the deposited data

How the results depend on the processing

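Of 84 alternative values, 39 stayed within the spread or within 1.5 times the value reported, 43 moved and 2 reversed; the cause was not tested. Median fuzziness stayed higher in H3 shutoff under each alternative run, at 3.73 bp with a common 73 bp window and 3.26 bp with that window and distinct intervals, a setting chosen after seeing the data. The autocorrelation difference was -0.0463 with no upper limit on density and -0.0866 with distinct intervals. The median spacing difference was 0.5 bp among nucleosomes with at least 50 read centres and for distances up to 220 bp. H3 shutoff had 1948.5 ± 1285 more nucleosomes with more than 5 read centres (SD, n = 2), but with at least 50 the difference was -1219. The difference near chromosome ends was -0.0297 to 0.0639 on the log2 scale when either replicate was left out. Without replicate 1 it was negative within 20 kb, while within 10 kb both replicates were positive (mean 0.03).

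With the 3 libraries of 0 h only, edgeR called 26 higher and 2 lower. At the centres called in H3 shutoff replicate 1 it called 1 higher, and at those of replicate 2 it called 2. Leaving out 1 replicate gave 3 to 895 higher and 1 to 207 lower. The pairing by culture, fitted as a replicate block, gave 195 higher and 8 lower. Wildtype 0 h shares the number of replicate 1 in the labels but no culture with it.

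Nucleosomes 2-fold apart in both libraries, 135 higher and 57 lower, became 193 and 23 with TMM factors, 58 and 30 with a pseudocount of 5, 19 and 18 with a mean of at least 50, and 33 and 11 with distinct intervals. Distinct intervals compress high counts, so folds of this size are harder to reach with them. At 1.5-fold there were 794 and 1234. At wildtype 3 h centres there were 319 and 43, at replicate 1 centres 912 and 33, and at replicate 2 centres 479 and 31. The choice of centres thus moved the balance of higher and lower counts. With 1 replicate left out there were 332 to 1662 higher and 398 to 2706 lower. Shifted nucleosomes numbered 7700 at 10 bp, 1268 with at least 50 read centres and 9685 to 12908 with 1 replicate left out. At 500 bp, 0 regions were without reads in wildtype. Tiles numbered 22 higher and 5 lower at 1.3-fold, and 0 and 0 with distinct intervals, which compress high counts. Equal reads per library limit every count to relative levels.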
